A study of Mus musculus with 13 samples.

Results

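Ribosome-protected fragments (RPFs) of germinal vesicle (GV) oocytes were compared between 3 Nat10-ZcKO and 3 WT libraries, which are 6 of the 13 libraries of the series and 6 of its 11 Ribo-seq libraries. The libraries were chosen by their labels for stage and genotype alone. The genes compared were the 4939 of 22442 listed genes with 20 or more counts on the coding sequence (CDS), summed over the 6 libraries. The study asked what the acetyltransferase NAT10 does in female germ cells, and the comparison asks how the fragments on each gene differ in fully grown oocytes that lost Nat10 during growth.

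In the Nat10-ZcKO females, floxed Nat10 alleles (Nat10 lox/-, from Nat10 lox/lox parents) were recombined by Zp3-Cre, which is active in the oocyte from the primary follicle onward and leaves Nat10 in the granulosa cells around it. WT oocytes carried functional Nat10. All mice were on the C57BL/6J background, and the study's oocyte collection used 21-day-old females given pregnant mare serum gonadotropin (PMSG), with GV oocytes harvested 48 h later. Each library pooled about 100 oocytes in cycloheximide medium, and the lysate was treated with RNase I. GEO's design text also names tamoxifen injection for these samples, whereas Zp3-Cre is not described as inducible, and this was left as the sources state it. Nothing in the labels ties a replicate to an animal, so the p-values below measure the spread between these libraries, which may be technical.

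NAT10 is the enzyme that writes N4-acetylcytidine on RNA, and it works mainly in the nucleolus, where it is needed for processing of ribosomal RNA. A GV oocyte is arrested in meiosis and has stocked large amounts of maternal mRNA, some of it translated and some held back for maturation. A ribosome-protected fragment count reflects both how much mRNA a gene has and how much of it is being translated. Its zona pellucida proteins, oocyte-secreted growth factors, NLRP proteins and the subcortical maternal complex are made there and in almost no other cell, so their fragments mark the oocyte in a library from ovary.

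The floxed part of the gene can be placed from the genotyping primers of the study, which are shown because they delimit what the CDS counts of Nat10 can and cannot check. All 3 matched chromosome 2 of GRCm38 (mm10) once, within Nat10 (ENSMUSG00000027185.15, chr2:103721256-103761270, minus strand).
NL-F and ND-F (shared forward primer, minus strand, chr2:103754696-103754719): ggaaccatgagtattgtagcctgc
NL-R (reverse primer of the floxed allele, plus strand, chr2:103754534-103754557): ctattggctgtgacttcagcagac
ND-R (reverse primer of the deleted allele, plus strand, chr2:103752098-103752120): gtcttgtttgggaagggcactac
Between ND-F and ND-R, 2622 bases apart from end to end, lie exons 4 and 5 of the 29 exons of transcript Nat10-201. They hold 295 coding bases, 9.60% of its 3072, a number that leaves a remainder of 1 when divided by 3. Most of the Nat10 CDS therefore lies outside the interval.

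Nat10 had 8, 11 and 3 counts in WT replicates 1 to 3 and 4, 1 and 5 counts in Nat10-ZcKO replicates 1 to 3. Scaled to the library total (CPM, counts per 1000000 in the library), WT stood at 55.0, 39.4 and 31.2 CPM and Nat10-ZcKO at 94.4, 19.3 and 18.04 CPM, the first above and the other two below all of WT. The log2 change was -0.47 ± 0.87 (SE), with an adjusted p of 0.976 by edgeR's quasi-likelihood test (0.634 to 0.999 over 14 alternatives). With so few counts, and with fragments counted on the exons that remain, the targeted gene checks neither genotype label.

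The total was 96142 to 279464 counts in the WT libraries and 42360, 51709 and 277124 counts in Nat10-ZcKO replicates 1, 2 and 3. A gene without a count could still stand at 70.8 CPM in Nat10-ZcKO replicate 1 and 58.0 CPM in replicate 2 (3 counts as the upper limit), against 10.8 to 31.2 CPM in the other libraries. Fragments carry no molecular identifiers and were amplified by PCR, so these limits and the intervals below cover counting error only. A single gene, Vsig8, held 11.4% to 24.8% of every library. Thinned to 42360 counts each, Nat10-ZcKO replicates 1 and 2 had a count on 7308 and 6514 genes, the WT libraries on 5757 to 5950, and Nat10-ZcKO replicate 3 on 5419.

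The 3 Nat10-ZcKO libraries did not resemble each other. Across the 4939 genes, which are not independent replicates, Spearman's rho of CPM was 0.73 to 0.77 between WT libraries and 0.70 to 0.75 between Nat10-ZcKO replicate 3 and the WT libraries. It was 0.33 to 0.36 between replicate 2 and WT, 0.15 to 0.19 between replicate 1 and WT, and 0.32 between replicates 1 and 2. Pearson's r of log2(CPM + 1) gave the same order, with 0.67 to 0.76 among WT, 0.68 to 0.78 for replicate 3, 0.27 to 0.34 for replicate 2 and 0.09 to 0.14 for replicate 1. Among the 1225 most counted genes, r was 0.84 to 0.88 among WT and 0.73 to 0.85 between replicate 3 and WT. For these genes it was 0.29 to 0.34 between replicate 2 and WT, and -0.04 to -0.0004 between replicate 1 and WT. Replicates 1 and 2 are also the shallowest libraries, and the part of depth in these values was not tested beyond this.

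**Figure D1:**
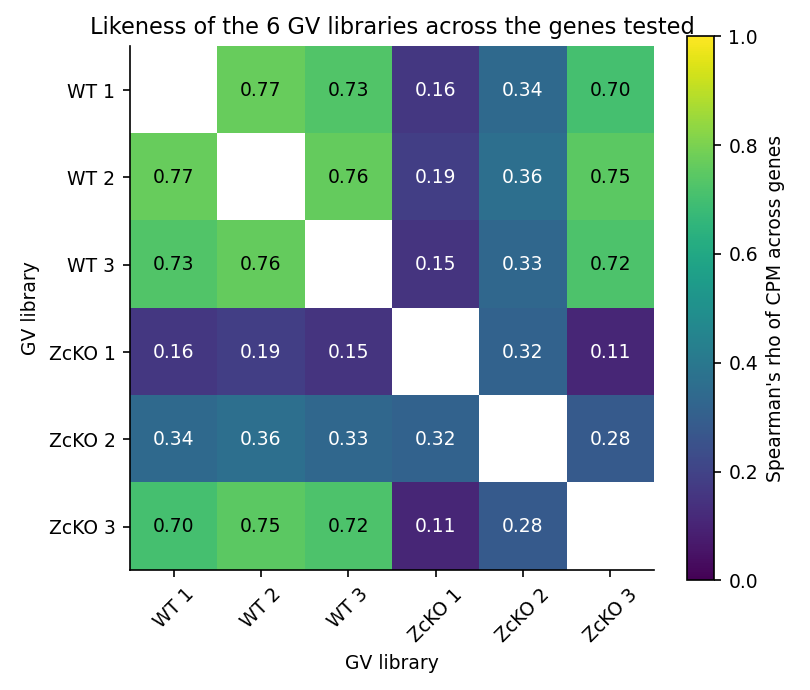
Spearman's rho of CPM across 4939 genes for each pair of the 6 GV libraries, as a heat map from 0 (dark) to 1 (yellow) with the value in each cell. WT libraries and Nat10-ZcKO (ZcKO) replicate 3 form one block at 0.70 or above, and Nat10-ZcKO replicate 1 reaches at most 0.32 with any library.

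Oocyte genes set Nat10-ZcKO replicates 1 and 2 apart first. The list of 16 oocyte markers took 6.09%, 8.25% and 8.25% of the counts in WT replicates 1 to 3. It took 0.0236% in Nat10-ZcKO replicate 1 (exact 95% interval 0.0113% to 0.0434%), 1.67% in replicate 2 (1.56% to 1.78%) and 11.6% in replicate 3 (11.5% to 11.7%). Replicate 1 was thus 319-fold and replicate 2 4.52-fold below the WT mean, while replicate 3 was 1.54-fold above it. Of the 16 markers, 5 had any count in replicate 1 and 14 in replicate 2, against all 16 in the other 4 libraries. The label of replicate 1 says oocytes, but its defining oocyte markers were at or near 0. In pooled oocytes, fewer cells of a type and less RNA per cell cannot be told apart.

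The zona pellucida genes show this at the level of single genes. Zp2, a sperm-binding protein of the oocyte coat, had 8710, 12767 and 12586 CPM in WT, and 0, 2611 and 21330 CPM in Nat10-ZcKO replicates 1 to 3. Replicate 1 was at least 160-fold below the WT mean (3 counts in that library as the limit), replicate 2 was 4.35-fold below it, and replicate 3 was 1.88-fold above it. Zp3 behaved alike, at 8133 to 10828 CPM in WT and 23.6, 2224 and 17711 CPM in Nat10-ZcKO.

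Padi6, a peptidylarginine deiminase of the oocyte cytoplasmic lattices, went from 19373 to 27886 CPM in WT to 47.2, 3790 and 44038 CPM in Nat10-ZcKO replicates 1 to 3. The same order held for Uchl1, a deubiquitinating enzyme abundant in oocytes, with 12939 to 14395 CPM in WT and 47.2, 2011 and 19204 CPM in Nat10-ZcKO. It held again for Nlrp14, at 9521 to 14187 CPM in WT and 70.8, 2050 and 18144 CPM in Nat10-ZcKO. For each of these genes replicates 1 and 2 lay below, and replicate 3 above, all WT libraries. Dnmt1, the maintenance DNA methyltransferase, was less far below WT in replicates 1 and 2, with 4668 to 5983 CPM in WT and 496, 2475 and 5214 CPM in Nat10-ZcKO.

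Oocyte gene classes did not scale down evenly in replicate 2. Relative to the WT mean its share was 0.171 for the oocyte NLRP genes, 0.190 for the subcortical maternal complex, 0.185 for the oocyte Fbxw genes and 0.227 for the zona genes. It was 0.669 for the oocyte-secreted factors and 1.21 for the Tcl1 family. Oosp1, a secreted oocyte protein, stood at 851 CPM in replicate 2 and 268 to 354 CPM in WT. Tcl1, a co-activator of the AKT kinase, stood at 1934 CPM there and 1217 to 1588 CPM in WT. In replicate 1 these same classes had 0 counts (secreted factors), 1 count (zona, Fbxw and Tcl1 genes each), 6 counts (NLRP genes) and 14 counts (subcortical maternal complex).

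**Figure D2:**
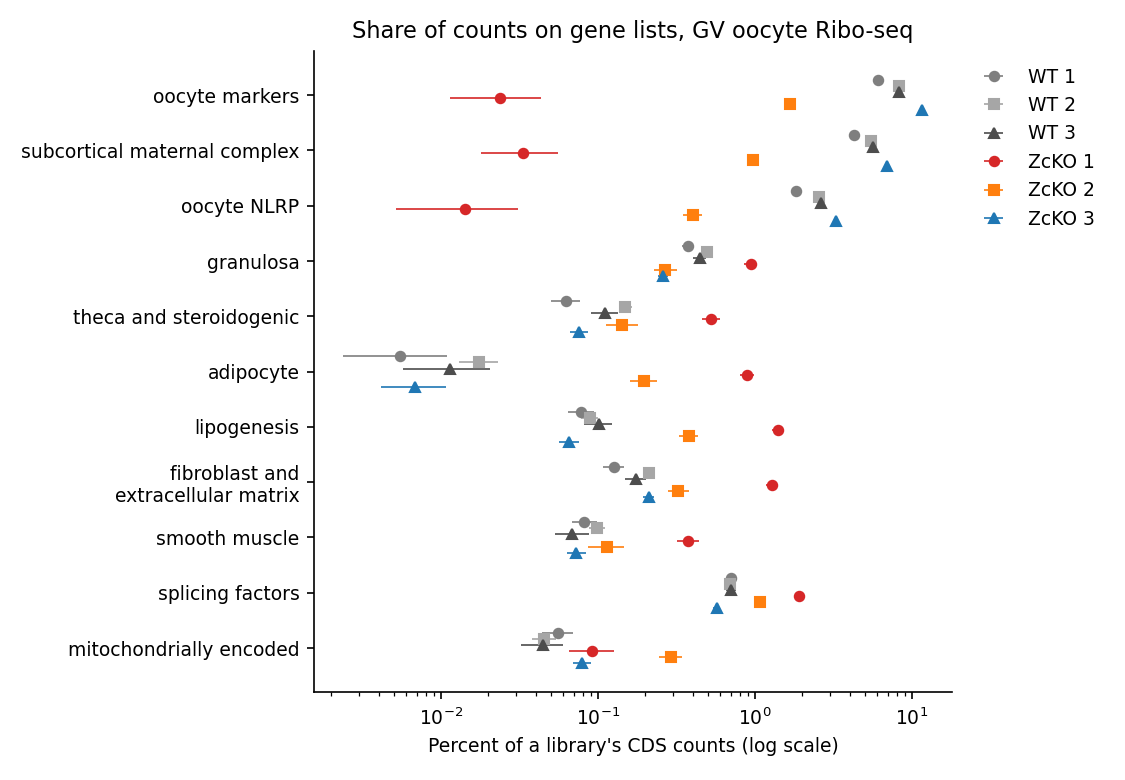
Share of each library's CDS counts on 11 gene lists, in percent on a log axis, for 3 WT (grey) and 3 Nat10-ZcKO (ZcKO, coloured) libraries, with exact 95% intervals that cover counting error only. Replicate 1 (red) and replicate 2 (orange) lie left of WT on the 3 oocyte lists and right of it on the adipocyte, lipogenesis and matrix lists, whereas replicate 3 (blue) stays within a factor of 2 of the WT mean on all 11.

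Genes of fat cells and fatty acid synthesis were displaced in the other direction. The 16 adipocyte markers took 0.00550% to 0.0175% of the counts in WT, 0.888% in Nat10-ZcKO replicate 1, 0.195% in replicate 2 and 0.00686% in replicate 3. Replicate 1 was 77.2-fold and replicate 2 16.997-fold above the WT mean. Fabp4, the fatty acid-binding protein of adipocytes, had 0, 1 and 0 counts in WT and 131, 29 and 1 counts in Nat10-ZcKO. Car3, a carbonic anhydrase abundant in fat, had 1, 0 and 0 counts in WT and 99, 19 and 2 counts in Nat10-ZcKO. Thrsp, a regulator of lipogenesis, had no count in any WT library and 35, 21 and 0 counts in Nat10-ZcKO, where the group mean is at least 71.4-fold higher (3 counts over the WT group as the limit). Adiponectin (Adipoq) had only 1 count in each of replicates 1 and 2, and Adrb3 had none in any of the 6 libraries. Markers of brown fat were absent from the 3 Nat10-ZcKO libraries.

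The lipogenesis list gave 0.0784% to 0.101% in WT and 1.39%, 0.379% and 0.0653% in Nat10-ZcKO replicates 1 to 3. Fasn, the fatty acid synthase, had 206, 154 and 177 CPM in WT and 7035, 1663 and 130 CPM in Nat10-ZcKO, so replicates 1 and 2 were 39.3-fold and 9.29-fold above the WT mean and replicate 3 lay below every WT library. Acly, which supplies acetyl-CoA for the pathway, had 96.2 to 166 CPM in WT and 2219, 561 and 32.5 CPM in Nat10-ZcKO. Scd1, a fatty acid desaturase, had 0, 2 and 0 counts in WT and 23, 3 and 2 counts in Nat10-ZcKO. High values on this list came from replicates 1 and 2.

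Other ovarian and stromal classes were higher mainly in replicate 1. The fibroblast and extracellular matrix list took 0.126% to 0.212% of WT counts and 1.28%, 0.325% and 0.210% of those of Nat10-ZcKO replicates 1 to 3. Col1a2, a chain of type I collagen, had 165, 254 and 187 CPM in WT and 1889, 329 and 292 CPM in Nat10-ZcKO, without overlap. Smooth muscle genes took 0.0686% to 0.0984% of WT counts and 0.375%, 0.114% and 0.0729% of Nat10-ZcKO counts. Acta2, smooth muscle actin, had 3, 5 and 1 counts in WT and 62, 10 and 1 counts in Nat10-ZcKO.

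Granulosa and theca markers split the 2 divergent libraries. The granulosa list was at 0.374% to 0.497% in WT, 0.940% in Nat10-ZcKO replicate 1, 0.269% in replicate 2 and 0.260% in replicate 3. Inha, the inhibin alpha subunit of granulosa cells, followed it, with 1581 to 2362 CPM in WT and 4698, 1644 and 1158 CPM in Nat10-ZcKO. The theca and steroidogenic list was at 0.0626% to 0.149% in WT and 0.526%, 0.143% and 0.0758% in Nat10-ZcKO. Cyp11a1, which starts steroid synthesis from cholesterol, had 110 to 254 CPM in WT and 1298, 445 and 57.7 CPM in Nat10-ZcKO. Granulosa cells keep Nat10 in this model, and their part in any difference below was not tested.

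The surface epithelium and oviduct list, small in counts, was also high in both, with 3, 9 and 4 counts in WT and 29, 14 and 21 counts in Nat10-ZcKO replicates 1 to 3, or 21.7-fold, 8.60-fold and 2.41-fold above the mean WT share. Krt19, a keratin of simple epithelia, had 0, 1 and 1 counts in WT and 15, 3 and 5 counts in Nat10-ZcKO, higher in each. The erythroid list had 2 counts in all 6 libraries, the hepatocyte list at most 16 in any, and the testis list none in replicates 1 and 2. Macrophage and leukocyte genes took 0.0708% of replicate 1 and 0.00608% to 0.0192% of WT, with 1 count in all on the pan-leukocyte gene Ptprc.

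Replicate 2 was not simply intermediate between replicate 1 and WT. Abca3, a lipid transporter, had 605, 472 and 1207 CPM in WT and 118, 33263 and 830 CPM in Nat10-ZcKO. Stx16, a syntaxin of the Golgi, had 55.0, 10.7 and 239 CPM in WT and 732, 24928 and 21.7 CPM in Nat10-ZcKO. Golph3, another Golgi protein, had 584 to 2372 CPM in WT and 1015, 18063 and 1158 CPM in Nat10-ZcKO. These 3 genes were the most counted after Vsig8 in replicate 2, and 2 of them, Abca3 and Golph3, were below or within the WT range in replicate 1.

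A further set was high in both libraries. Cp, the copper-binding ferroxidase ceruloplasmin, had 1, 7 and 6 counts in WT and 120, 207 and 24 counts in Nat10-ZcKO, or 2833, 4003 and 86.6 CPM, all above the WT maximum of 62.4 CPM. Igbp1b, a regulatory subunit of PP2A-type phosphatases, had 2, 0 and 12 counts in WT and 138, 292 and 5 counts in Nat10-ZcKO. Pcnx, a multi-pass membrane protein, had 124 to 154 CPM in WT and 3211, 1102 and 93.8 CPM in Nat10-ZcKO. Replicate 3 lay within the WT range for Igbp1b and below it for Pcnx.

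Counted over all genes, with 10 CPM added to both sides, 142 genes of replicate 1 were 4-fold or more above the WT mean with 20 or more counts (2.88% of 4939), and 897 were 4-fold or more below it (18.2%). For replicate 2 the counts were 49 (0.992%) and 665 (13.5%), and for replicate 3 they were 4 (0.081%) and 67 (1.36%). Among the 16 oocyte markers, 16, 10 and 0 were 4-fold or more below WT in replicates 1, 2 and 3. Of the 16 matrix genes 9, 1 and 0 were 4-fold or more above it, and of the 16 lipogenesis genes 5, 2 and 0. A single library has no replicate check, and the 3 comparisons share the WT libraries.

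Classes that most cells share were counted in the same way. Splicing factors took 0.694% to 0.705% of WT counts and 1.91%, 1.07% and 0.568% of those in Nat10-ZcKO replicates 1 to 3. Cytosolic ribosomal proteins took 0.242% to 0.273% in WT and 0.373%, 0.234% and 0.346% in Nat10-ZcKO. Glycolysis genes took 0.622% to 0.793% in WT and 0.279%, 0.244% and 0.996% in Nat10-ZcKO, and the list did not move as one. Pkm, a pyruvate kinase, had 364 to 458 CPM in WT and 94.4, 19.3 and 270.6 CPM in Nat10-ZcKO, whereas Ldha, a lactate dehydrogenase, had 10.4 to 61.9 CPM in WT and 519, 270.7 and 7.22 CPM.

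**Figure D3:**
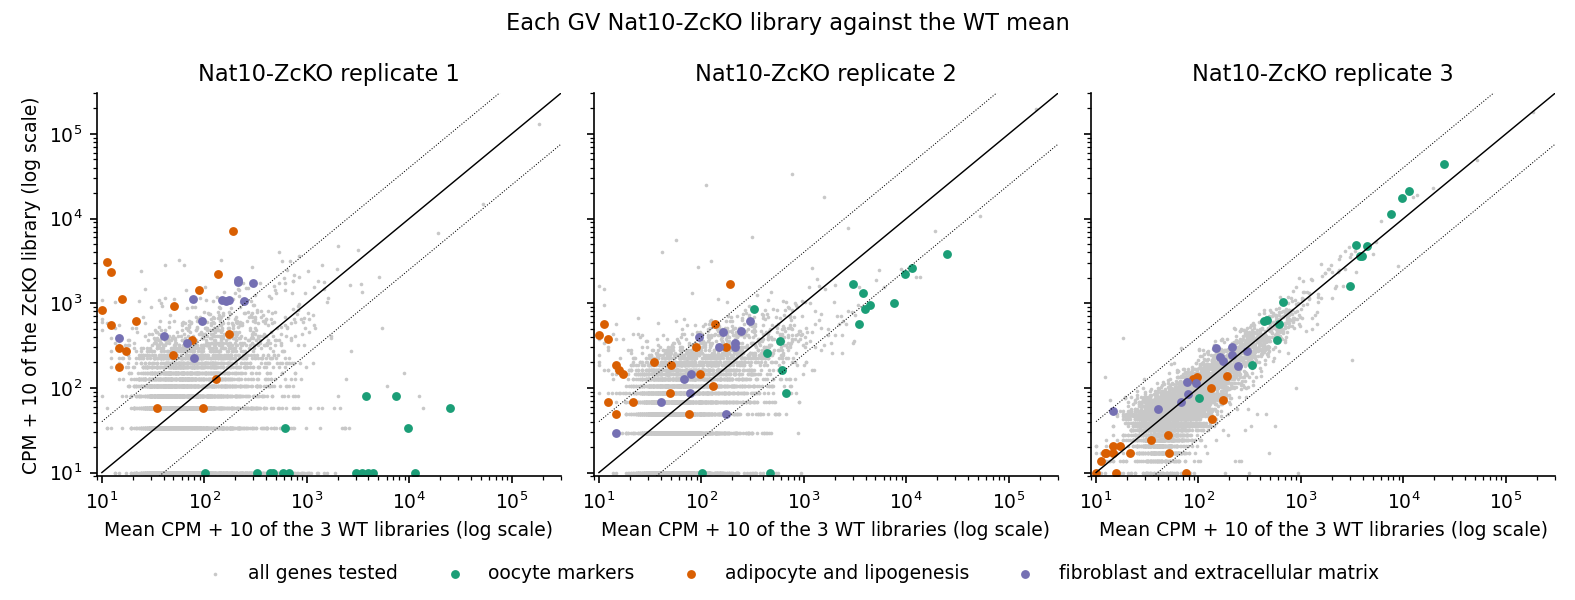
CPM of each Nat10-ZcKO library against the mean of the 3 WT libraries for 4939 genes, 10 CPM added, both axes log; the solid line is equality and dotted lines mark 4-fold. Oocyte markers (green) lie below the lower dotted line in replicate 1 (16 of 16) and replicate 2 (10 of 16) and along the solid line in replicate 3, and adipocyte and lipogenesis genes (orange) lie high in the first 2 panels.

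The test across genes made no call over the 6 libraries. By edgeR's quasi-likelihood test with Benjamini-Hochberg adjustment, 0 of 4939 genes passed an adjusted p of 0.05 (0%), and 261 had an unadjusted p under 0.05 (5.28%). DESeq2 called 13 genes higher and 1 lower in Nat10-ZcKO (0.283% in all), among them Tram1l1, Cp, Fabp4 and Car3. Without replicate 3, edgeR called 95 of 4103 genes higher (2.32%) and 133 lower (3.24%). Without replicate 1 or without replicate 2 it called 0 in either direction, with 217 of 4601 and 202 of 4624 genes at an unadjusted p under 0.05. Scaling by library size alone moved the median log2 change over all genes from -0.05 to 0.11, so small changes depend on the scaling.

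Several calls made without replicate 3 fell on the classes described above, and the part that adipocyte, matrix or other non-oocyte RNA had in them was not tested. In lipogenesis Fasn, Acly and Pcx were called higher, each with over 20 WT counts. Also called higher were Acaca, Gpd1 and Scd1 of lipogenesis, Lipe, Car3, Thrsp, Cfd and Fabp4 of the adipocyte list, Smtn, Tagln and Acta2 of the smooth muscle list, and Krt19. Each of these had fewer than 20 WT counts in all and reached the count minimum only through the Nat10-ZcKO libraries, so its call adds nothing to the counts given above. On the lower side were 8 of the 12 oocyte Fbxw genes tested and, of the 16 oocyte markers, Dppa3 and Khdc3, which reached the minimum through the WT libraries. Over all genes tested in this fit, 3.24% were called lower. The median log2 change without replicate 3 was -3.39 over the 16 oocyte markers, beside -0.22 over all 4103 genes. No member of the granulosa list passed, and the median over its 10 members tested was 0.16. For Fasn the log2 change without replicate 3 was 4.12 ± 0.77 (SE), with an adjusted p of 0.0199 by edgeR's quasi-likelihood test. Over the 6 libraries it was 3.50 ± 1.16 (SE), with an adjusted p of 0.755 by the same test. Its 16 alternatives ran from 0.0199 to 0.999, and only the fit without replicate 3 was under 0.05.

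Agreement of all 3 Nat10-ZcKO libraries against all 3 WT libraries was counted next. In 245 genes (4.96% of 4939) every Nat10-ZcKO library was above every WT library, and in 422 genes (8.54%) every one was below. With 3 libraries against 3, labels without information would put a share close to the first in each direction. The count of higher genes is therefore no sign of agreement by itself. Thinned to equal totals, the counts were 175 and 263. The 10 genes of each direction with the widest gap, measured as the lowest CPM of the higher group over the highest CPM of the lower group with 10 CPM added, are described here, and none of them passed the adjusted p over all genes in the fit of the 6 libraries.

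**Figure D4:**
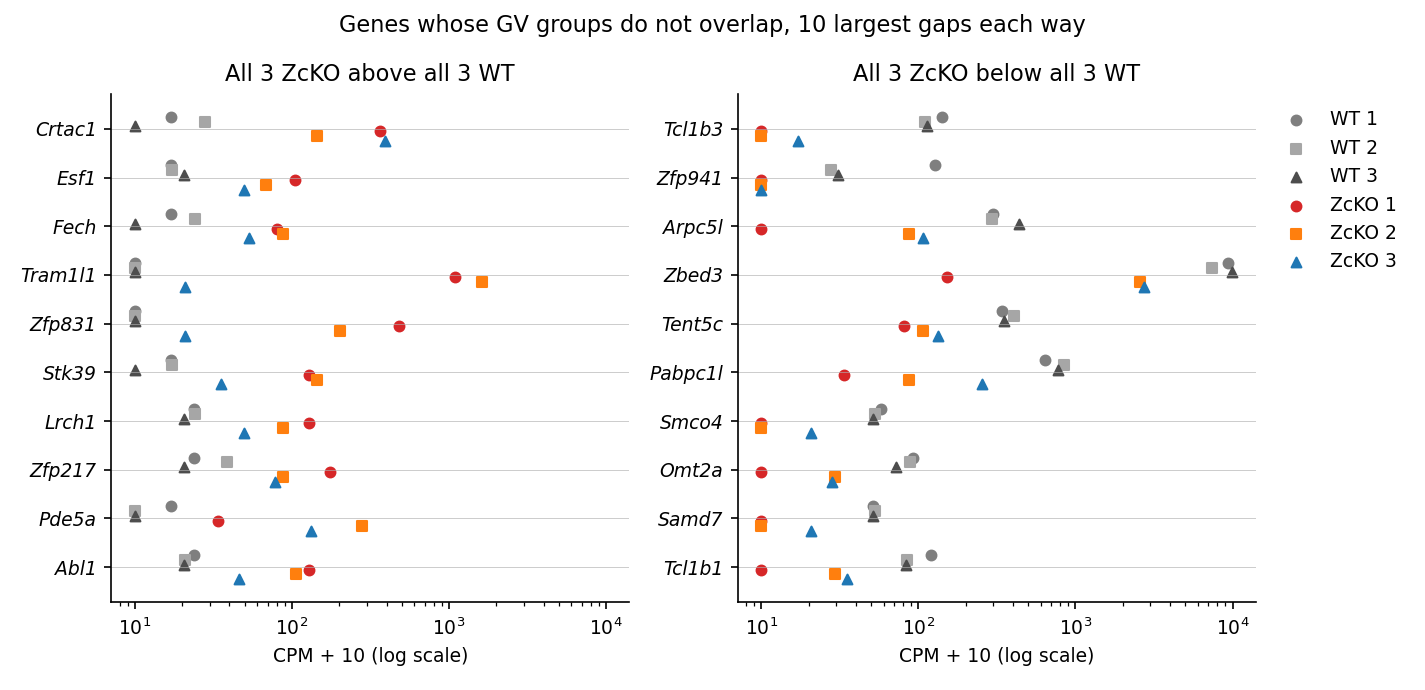
CPM + 10 on a log axis in the 3 WT (grey) and 3 Nat10-ZcKO (ZcKO, coloured) libraries for the 10 genes with the widest gap in each direction. Crtac1 and Zbed3 have the Nat10-ZcKO libraries, replicate 3 (blue) included, well clear of WT, whereas Smco4, Samd7 and Zfp831 rest on 3 counts or fewer in replicate 3.

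Crtac1, a secreted glycoprotein of cartilage matrix (ENSMUSG00000042401.8, chr19:42283035-42431783 of GRCm38), had the widest gap upward. It had 1, 5 and 0 counts in WT and 15, 7 and 105 counts in Nat10-ZcKO replicates 1 to 3, or 6.87, 17.9 and 0 CPM against 354, 135 and 379 CPM. The lowest Nat10-ZcKO library exceeded the highest WT library 5.21-fold on the scale with 10 CPM added. The log2 change was 4.58 ± 0.90 (SE), with an adjusted p of 0.452 by edgeR's quasi-likelihood test. Crtac1 reached the count minimum only through the Nat10-ZcKO libraries, so neither this p nor those of the alternatives adds to its counts. Over 16 alternatives the adjusted p ran from 2.3e-06 to 0.999 and was under 0.05 in 5, including the fit of replicates 1 and 2 and that of replicate 3 alone.

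Pde5a, a phosphodiesterase that breaks down cGMP, had 1, 0 and 0 counts in WT and 1, 14 and 34 counts in Nat10-ZcKO. Pde5a also reached the count minimum only through the Nat10-ZcKO libraries, so its p-values add nothing to these counts. Its overlap-free order rests on 1 count in replicate 1, and its adjusted p of 0.452 by edgeR's quasi-likelihood test was under 0.05 in 5 of 14 alternatives. Tram1l1, a relative of a membrane protein of the endoplasmic reticulum, had no count in WT and 46, 83 and 3 counts in Nat10-ZcKO, where the group mean of 901 CPM was at least 156-fold higher (3 counts over the WT group as the limit). Zfp831, a zinc finger protein, had 0 counts in WT and 20, 10 and 3 counts in Nat10-ZcKO. For both genes replicate 3, at 10.8 CPM, lay within the limit that a WT count of 0 allows.

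The remaining 6 genes had low counts in every library. Esf1, a nucleolar protein of ribosomal RNA processing, counted 1, 2 and 1 fragments per WT library, and 4, 3 and 11 per Nat10-ZcKO library. Fech, which inserts iron into heme, had 1, 4 and 0 counts against 3, 4 and 12, and the kinase Stk39 had 1, 2 and 0 counts against 5, 7 and 7. Zfp217 reached 165, 77.4 and 68.6 CPM in Nat10-ZcKO against 10.4 to 28.6 CPM in WT, with a log2 change of 2.07 ± 0.77 (SE). Lrch1 and the tyrosine kinase gene Abl1 had 10.4 to 14.3 CPM in WT and 36.1 to 118 CPM in Nat10-ZcKO.

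Tcl1b3, a member of the oocyte Tcl1 cluster (ENSMUSG00000068940.7, chr12:105191043-105195612), had the widest gap downward. It had 19, 28 and 10 counts in WT and 0, 0 and 2 counts in Nat10-ZcKO replicates 1 to 3, or 131, 100 and 104 CPM against 0, 0 and 7.22 CPM. The log2 change was -4.30 ± 0.95 (SE), with an adjusted p of 0.452 by edgeR's quasi-likelihood test and a range of 0.0244 to 0.999 over 16 alternatives. All of Tcl1b1, Tcl1b2 and Tcl1b4 also lay below WT in every Nat10-ZcKO library, which makes 4 of the 6 family members. These genes are related members of one family. Whether fragments shared among them were split or dropped in counting was not tested. Tcl1 itself did not follow them, with 1217 to 1588 CPM in WT and 23.6, 1934 and 714 CPM in Nat10-ZcKO.

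Zbed3, a component of the subcortical maternal complex (ENSMUSG00000041995.8, chr13:95323612-95337841), was the most counted gene of this group. It had 1368, 2052 and 953 counts in WT and 6, 132 and 759 counts in Nat10-ZcKO, or 9404, 7343 and 9912 CPM against 142, 2553 and 2739 CPM. Replicate 3 was 3.24-fold below the WT mean, whereas its share on the whole complex was 1.35-fold above it. The log2 change over the 6 libraries was -2.32 ± 1.35 (SE), with an adjusted p of 0.975 by edgeR's quasi-likelihood test (0.0108 to 0.999 over 16 alternatives). Pabpc1l, the poly(A)-binding protein of oocytes and early embryos, had 632, 837 and 759 CPM in WT and 23.6, 77.4 and 245 CPM in Nat10-ZcKO, a log2 change of -2.52 ± 0.91.

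Tent5c, a noncanonical poly(A) polymerase, had 330, 397 and 343 CPM in WT and 70.8, 96.7 and 122.7 CPM in Nat10-ZcKO, so the 3 Nat10-ZcKO libraries lay close together. Arpc5l, a subunit of the actin-nucleating Arp2/3 complex, had 289, 286 and 426 CPM against 0, 77.4 and 97.4 CPM. The zinc finger gene Zfp941 had 17, 5 and 2 counts in WT and none in any Nat10-ZcKO library. Pooling the Nat10-ZcKO libraries, most of whose counts are from replicate 3, put its WT mean at least 6.42-fold higher (3 counts as the limit). Taken singly, replicates 1 and 2 could still stand at 70.8 and 58.0 CPM, so this bound does not hold for them. Smco4, Samd7 and Omt2a had 4 to 22 counts per WT library and 0 to 5 per Nat10-ZcKO library. A gene expressed in oocytes and nearly absent from replicates 1 and 2 needs only replicate 3 to be lower in order to enter this list.

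By class and among members tested, genes lower in every Nat10-ZcKO library were counted beside 8.54% of all genes tested. They numbered 3 of 5 oocyte-secreted factors, 4 of 13 maternal mRNA storage genes and 4 of 17 meiotic cell cycle genes. They also numbered 3 of 4 oogenesin and Obox genes tested and 4 of 5 Tcl1 family genes tested. On the sperm-binding and activation list they were 4 of 7, namely Calr, Itpr1, Izumo1r and Tdrkh. Tdrkh is a gene of the piRNA pathway and does not belong to that class by function. Plat, of the same list, was higher in every Nat10-ZcKO library. Oocyte classes differed in this, with 0 of 13 Fbxw genes, 0 of 3 zona genes, 1 of 8 subcortical maternal complex genes and 2 of 9 NLRP genes. Gdf9, an oocyte growth factor acting on granulosa cells, had 2743, 3324 and 3006 CPM in WT and 0, 1682 and 1573 CPM in Nat10-ZcKO, and its partner Bmp15 had 550, 605 and 572 CPM against 0, 348 and 354 CPM. Replicates 2 and 3 were thus close to each other for both factors, 1.63-fold to 1.92-fold below the WT mean. The log2 change of Gdf9 was -1.50 ± 1.31 (SE), and no alternative gave it an adjusted p under 0.05 by edgeR or DESeq2.

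Cpeb1, which holds maternal mRNAs back by their 3' ends, had 577, 748 and 843 CPM in WT and 23.6, 96.7 and 444 CPM in Nat10-ZcKO. Obox1, an oocyte homeobox gene, had 158, 179 and 250 CPM in WT and 0, 0 and 65.0 CPM in Nat10-ZcKO. Of the 13 maternal mRNA decay genes tested, 1 was lower throughout, beside 8.54% of all genes tested. It was Btg4, the adaptor that brings the CCR4-NOT deadenylase to maternal mRNAs. Btg4 had 330, 222 and 322 CPM in WT and 23.6, 135 and 46.9 CPM in Nat10-ZcKO.

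Genes higher in every Nat10-ZcKO library, beside 4.96% of all genes tested, numbered, among members tested, 5 of 13 matrix genes (Col6a1, Col1a1, Dcn, Col5a1 and Col1a2), 3 of 11 lipogenesis genes (Acaca, Pcx and Scd1) and 4 of 24 genes of NAT10 and ribosomal RNA processing (Nop58, Ncl, Nop14 and Rrp9). None of the 12 granulosa, 6 theca and 5 smooth muscle genes tested did so. Ncl, the nucleolar protein nucleolin, had 1182, 1138 and 1217 CPM in WT and 1558, 2572 and 1303 CPM in Nat10-ZcKO. That order depends on the scaling. The TMM factors, which correct for library composition, were 1.40 for Nat10-ZcKO replicate 1 and 0.849 to 0.989 for WT. Divided by them, Ncl in replicate 1 falls below every WT library. Thumpd1, the partner of NAT10 in acetylating transfer RNA, was lower in CPM, with 5, 15 and 3 counts in WT and 0, 0 and 3 counts in Nat10-ZcKO. A count of 0 still allows 70.8 CPM in replicate 1 and 58.0 CPM in replicate 2, above its value in every WT library. Its order thus rests on the 3 counts in replicate 3. For Acaca and Scd1 the order rests on 3 and 2 counts in replicate 3. None of these genes was called in the fit of the 6 libraries.

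Of the 13 mitochondrially encoded genes, 7 reached the count minimum. Of these, 4 were higher in all 3 Nat10-ZcKO libraries, beside 4.96% of all genes tested. They were mt-Nd1, mt-Nd2, mt-Nd4 and mt-Nd6, which encode subunits of respiratory complex I. The rest of the 7 were mt-Nd5, also of complex I, mt-Co1 and mt-Cytb, so most genes that could qualify belong to that complex. The list made up 0.0557%, 0.0454% and 0.0447% of the WT libraries, and 0.0921%, 0.290% and 0.0794% of Nat10-ZcKO replicates 1 to 3. With TMM scaling (a correction for library composition) replicate 1 and WT replicate 1 were nearly level, at 0.0657% and 0.0656%. mt-Nd6 had 34.4, 71.6 and 52.0 CPM in WT and 142, 290 and 148 CPM in Nat10-ZcKO, a log2 change of 1.63 ± 0.65 (SE) with an adjusted p of 0.859 by edgeR's quasi-likelihood test. mt-Nd1 had 5, 2 and 0 counts in WT and 4, 34 and 12 counts in Nat10-ZcKO. The 6 members mt-Co2, mt-Co3, mt-Atp6, mt-Atp8, mt-Nd3 and mt-Nd4l had no count in any of the 6 libraries.

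Nat10-ZcKO replicate 3, the deep library that keeps its oocyte markers, was also set against WT alone. The lone library is assumed to vary like the WT libraries. EdgeR's quasi-likelihood test called 13 of 4272 genes higher (0.304%) and 9 lower (0.211%). The median log2 change over all 4272 was -0.02, and over the 16 oocyte markers 0.45, with 3 of them called. This is a difference between 1 library and 3, and its calls have no replicate in the Nat10-ZcKO group.

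**Figure D5:**
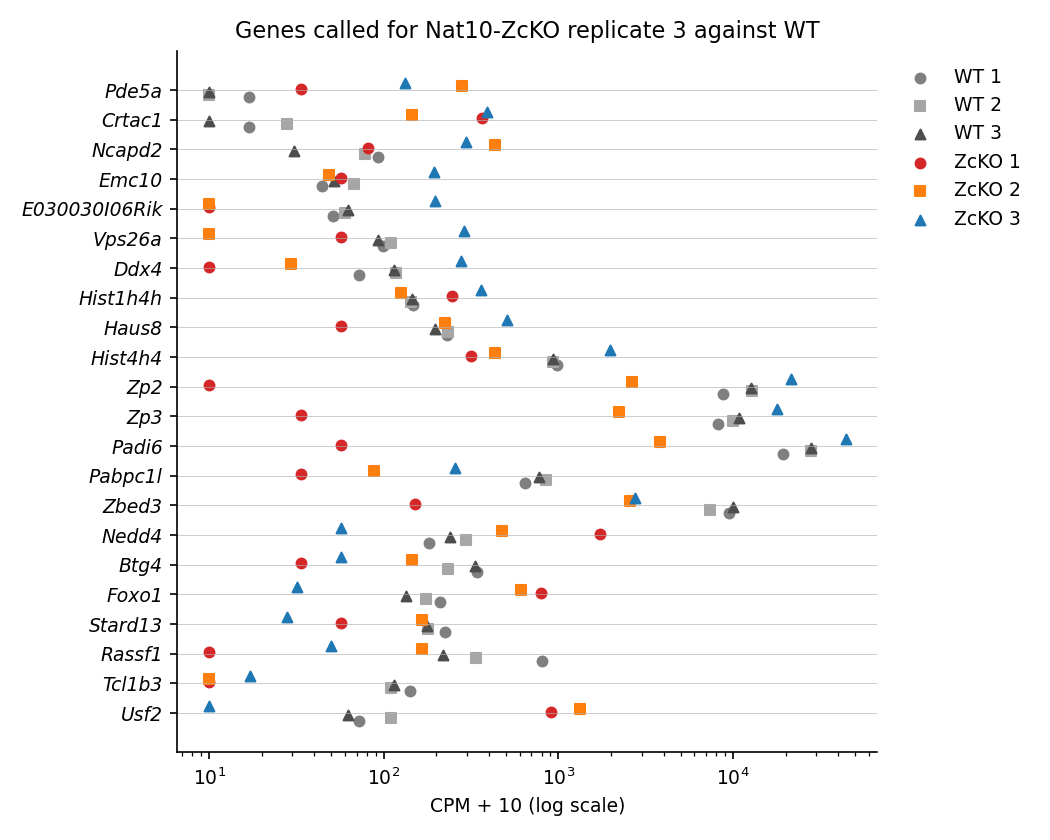
CPM + 10 on a log axis in each of the 6 libraries for the 22 genes called between Nat10-ZcKO replicate 3 (blue) and the 3 WT libraries (grey), ordered by log2 change. Replicates 1 (red) and 2 (orange) lie on the same side of WT as replicate 3 for Crtac1, Pde5a, Pabpc1l, Zbed3, Btg4, Stard13, Rassf1 and Tcl1b3, and for the other 14 genes at least 1 of them does not.

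Among the genes called lower in replicate 3, those lower in all 3 Nat10-ZcKO libraries were Zbed3, Pabpc1l, Btg4, Stard13, Rassf1 and Tcl1b3. Over all 4939 genes, 8.54% were lower in all 3, and replicates 1 and 2 alone lay below every WT library in 1172. Btg4 was lower in replicate 3 by a log2 change of -2.44 ± 0.46 (SE). Over the 6 libraries its log2 change was -2.28 ± 0.76 (SE), with an adjusted p of 0.755 by edgeR's quasi-likelihood test. Foxo1, a forkhead transcription factor, went in opposite directions, with 125 to 199 CPM in WT, 779 and 600 CPM in replicates 1 and 2 and 21.7 CPM in replicate 3. Usf2, a transcription factor of the upstream stimulatory factor pair, did likewise, with 52.0 to 100 CPM in WT, 897 and 1315 CPM in replicates 1 and 2 and no count in replicate 3. Nedd4, a ubiquitin ligase, had 172 to 286 CPM in WT, 1723, 464 and 46.9 CPM in Nat10-ZcKO.

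Among the genes called higher in replicate 3, only Crtac1 and Pde5a were above WT in all 3 Nat10-ZcKO libraries. Over all 4939 genes, 4.96% were above in all 3, and replicates 1 and 2 alone lay above every WT library in 1091. Oocyte markers called higher in replicate 3 were Zp2, Zp3 and Padi6, with log2 changes of 1.08, 1.05 and 0.99. These markers lay far below WT in replicates 1 and 2. The list also holds 2 histone H4 genes, Hist4h4 and Hist1h4h, which encode the same protein as other copies, so their fragments may be shared. Ddx4, the germ cell RNA helicase, had 61.9 to 107 CPM in WT and 0, 19.3 and 267 CPM in Nat10-ZcKO. Ncapd2, a condensin subunit, had 20.8 to 82.5 CPM in WT and 70.8, 425 and 285 CPM in Nat10-ZcKO. The genes named from this comparison outside the naming rule were chosen after their values were seen.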

How the data were processed

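The authors deposited 1 table per library with raw counts of fragments on the CDS of each gene, not normalised and not pooled. Their processing notes name cutadapt, STAR, HTSeq and mm10; versions, strand settings, ribosomal RNA removal and handling of PCR duplicates are not given in the sources used here. Libraries were grouped by their genotype and stage labels. Symbols and positions came from the GENCODE M21 annotation, which matched 22399 of the 22442 gene identifiers.

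Genes with 20 or more summed counts were tested in R 4.3.3 with edgeR 4.0.16 (TMM scaling, quasi-likelihood test, Benjamini-Hochberg adjustment, calls at an adjusted p of 0.05), and with DESeq2 1.42.0 as an alternative. The scripts were tested on simulated data. CPM used the library total. Intervals of shares are exact binomial (Clopper-Pearson, 95%). A library was set against the WT mean with 10 CPM added to both. Nothing was fitted on single libraries except replicate 3, whose spread was taken from WT.

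The genes named are Nat10; the 10 widest gaps in each direction among genes whose groups do not overlap; for each Nat10-ZcKO library the 10 most counted genes at 4-fold or more above the highest or below the lowest WT library; and the most counted members of each gene list. Others were chosen after their values were seen, and all members and lists were chosen with earlier results of these data known. Alternatives changed the scaling, the filter, the test, the libraries fitted and the replicate block. The TMM-scaled shares and the count of non-overlapping genes without dominant genes were added after seeing the data. The 5 MII libraries were used only for the interaction with stage and for the fit of all 11 libraries, and the immunoprecipitation libraries were not tested.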

Additional observations from a re-analysis of the deposited data

Results flagged for a closer look

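A test of the interaction, the GV difference minus the difference in metaphase II (MII) oocytes, called 35 of 3863 genes (0.906%) by edgeR's quasi-likelihood test with Benjamini-Hochberg adjustment, and 6 genes covered by the naming rule are among them. On the log2 scale the interaction was 11.21 ± 1.94 (SE) for Fech (adjusted p 3.2e-05), 11.81 ± 2.39 for Cp (0.000602), 8.35 ± 1.87 for Srrm3 (0.00311), 7.42 ± 1.78 for Pde5a (0.00792), 7.64 ± 1.95 for Crtac1 (0.0159) and 11.37 ± 3.07 for Stx16 (0.0282). Each was positive, that is, the Nat10-ZcKO to WT difference was larger at GV than at MII. For 5 of them the MII counts are high in WT replicate 2, a library of 4815 counts. In it Fech had 35 counts, Cp 73, Srrm3 15, Pde5a 8 and Crtac1 100, against 0, 5, 2, 0 and 6 in MII WT replicate 1, which has 134843 counts in all. In the 3 MII Nat10-ZcKO libraries Fech and Stx16 had no count and Crtac1 had 70, 2 and 7. Without MII WT replicate 2, 0 of 5547 genes were called, 211 had an unadjusted p under 0.05, and the adjusted p of these 6 genes was 0.971 or above. Their interactions were then 2.33 for Fech, 7.12 for Cp, 4.598 for Srrm3, 0.76 for Pde5a and 2.93 for Crtac1, but 12.06 for Stx16, which had 7 counts in MII WT replicate 1 and 0 in replicate 2, so its call was lost while its size was not.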

How the results depend on the processing

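Against 0 genes called in either direction, DESeq2 called 13 higher and 1 lower, no filter on low counts 29 and 12 of 13004, all 11 Ribo-seq libraries in one fit 25 and 8, and replicate 3 alone against WT 13 and 9. Leaving out 1 library gave 0 to 95 higher and 0 to 133 lower, with calls only without Nat10-ZcKO replicate 3. The replicate block gave 20 and 3. Same-numbered libraries had correlations of their deviations of -0.0057, 0.0126 and 0.0643, the last the highest of any pair. WT replicate 2 with Nat10-ZcKO replicate 1 came next at 0.0571. With so few libraries and such unlike Nat10-ZcKO replicates, these values cannot decide whether same-numbered libraries were handled together. Other scalings, filters and the removal of dominant genes also gave 0 in both directions.

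Genes without overlap numbered 91 higher among the 2445 with 50 or more counts and 263 lower after thinning. With 1 Nat10-ZcKO library left out they numbered 373 to 1091 higher and 708 to 1172 lower, the highest without replicate 3. The interaction with stage fell from 35 genes to 0 without MII WT replicate 2. For 7 lists the Nat10-ZcKO minus WT difference in mean share was recomputed and moved by less than 1 SD of the Nat10-ZcKO libraries, a wide yardstick. The oocyte marker difference of -3.10 percentage points became -0.90 without replicate 1 and -6.69 without replicate 3, and the granulosa difference of 0.051 turned to -0.174 without replicate 1 and -0.062 with TMM-scaled shares. The 285 values of single genes under alternatives cover 21 genes, Nat10 and those with the widest gap in each direction. Of these values, 258 stayed on their side of the threshold, 27 became called and none changed sign while called. Apart from Nat10, these genes were chosen from the same libraries because their groups do not overlap. That choice left little room for a change of sign. None of the 21 was called without these alternatives, so no call could be lost. The counts therefore cannot show how stable the changes are. The cause of the shifts between alternatives was not tested beyond the libraries and genes each alternative removes. Depth limits what is seen in replicates 1 and 2, where a gene without counts may stand at 58.0 to 70.8 CPM.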
